A study of Mus musculus with 4 samples.

Results

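The genes described here were the subunits of the proteasome, taken from an RNA-Seq table of mesenchymal cells that had been sorted out of the hind limb muscle of mice. Members were the rows whose gene symbol begins with Psma, Psmb, Psmc, Psmd, or Psme followed by a number, leaving out the interferon-inducible catalytic subunits Psmb8, Psmb9, and Psmb10. This rule found 39 of the 20027 genes in the table, with 16 genes of the 20S core, 5 Psmc genes, 14 Psmd genes, and 4 Psme genes. The sorted cells carried Sca1 and lacked CD31, CD45, and Vcam1, the gate of fibroadipogenic progenitors (FAPs), which are interstitial fibroblast-like cells of muscle. RNA was taken from these cells without culture, from male C57BL/6 mice aged 1.5 weeks. The libraries labelled WT (n = 2) have titles that name Prx1-Cre, whereas the study describes its controls as Bap1 fl/fl mice, so the genotype of the controls is unclear. The libraries labelled cKO (n = 2) came from Prx1-Cre;Bap1f/f conditional knockout mice, in which the Prx1 enhancer drives Cre in limb mesenchyme and removes exons of Bap1, a nuclear deubiquitinase.

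The proteasome degrades proteins that carry chains of ubiquitin. Its 20S core is a barrel of stacked rings, in which the alpha subunits form the gate and the beta subunits form the chamber that cuts proteins. The 19S particle caps the barrel. Its base holds a ring of ATPases that unfold the substrate, together with scaffold and ubiquitin receptor subunits, and its lid removes the ubiquitin chain. Other caps, the Psme activators, open the core without ubiquitin. In mammalian cells, the genes of the core and of the 19S particle are known to be transcribed together under the factor Nrf1, the product of Nfe2l1, when proteasome activity falls short. The study examined how Bap1 removes ubiquitin from the survival of motor neuron protein, so transcript levels of the degradation machinery in FAPs are a related measurement. Protein and activity of the proteasome were not measured here.

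Values were RPKM, in which reads are scaled by the length of the transcript and the total of the library. The depth was computed as 41.4 to 90.4 M reads in a library, and 10472 to 11195 genes reached 1 RPKM. Bap1 itself stood at 13.95 and 12.86 RPKM in WT and at 14.24 and 15.33 RPKM in cKO (limma adjusted p = 0.443). That value covers the whole transcript, so it does not check a deletion of some exons, and every direction below rests on the labels. The study reports, from separate assays, that Bap1 was disrupted in FAPs of this cross. The median gene was higher in cKO by 0.27 on the log2 scale, so counts of called genes are given for the deposited values and after median-ratio scaling, which takes this shift away. Smn1, which encodes the survival of motor neuron protein, stood at 6.10 and 4.59 RPKM in WT and at 11.7 and 13.5 RPKM in cKO. Its log2 fold change was 1.11 (SE 0.17, limma adjusted p = 0.00277), and 0.82 and still called after median-ratio scaling. The study reports no difference in its mRNA by quantitative PCR in FAPs of the same age. The sorted cells also differed in markers of other cells. Over all genes tested, 35.9% were higher and 6.48% were lower with the deposited values, and 14.8% and 14.2% after median-ratio scaling. All 6 chondrocyte markers, all 5 tenocyte markers, and all 5 smooth muscle markers were higher in cKO, under each scaling, with summed levels of 18.2 and 18.6, 63.8 and 50.2, and 33.95 and 49.9 RPKM in WT and of 1777 and 1534, 1185 and 923.6, and 298.2 and 395.8 RPKM in cKO. Schwann cell markers were higher for 4 of 4 tested genes (1 after median-ratio scaling). Their sums were 13.2 and 15.6 RPKM in WT and 29.8 and 39.7 RPKM in cKO. Cycling genes were higher for 4 of 6, and for 1 of 6 after median-ratio scaling, a share near that of all genes. Their sums were 90.3 and 88.1 RPKM in WT and 108.8 and 130.7 RPKM in cKO. Myofiber markers were lower for 4 of 5 genes (5 after median-ratio scaling), with sums of 53.0 and 71.4 RPKM in WT and 19.5 and 19.1 RPKM in cKO. A list mixed FAP genes with genes the gate excludes, and 4 of 5 tested were lower in cKO (5 after median-ratio scaling). Lower were the FAP genes Pdgfra, Cd34, and Ly6a, which encodes Sca1, and also Vcam1, which the gate excludes. Pdgfra fell from 104.4 and 135.6 RPKM to 69.7 and 51.3 RPKM, and Ly6a from 216.4 and 119.7 RPKM to 108.4 and 47.0 RPKM. Vcam1 fell from 27.7 and 24.96 RPKM to 18.3 and 20.5 RPKM. The gene added after scaling was Pecam1, which encodes CD31 and was also on the endothelial list. Endothelial markers were higher for 1 of 4 tested genes and lower for 0 (1 and 1 after median-ratio scaling), with sums of 26.8 and 27.7 RPKM in WT and 29.0 and 26.1 RPKM in cKO, and 0 of 1 tested hematopoietic markers passed, with sums of 4.07 to 6.04 RPKM. Ptprc, which encodes CD45, was at most 0.254 RPKM in any library, and Pax7 of muscle stem cells was at most 0.099 RPKM. Of the muscle stem cell list, 1 of 2 tested genes was higher under each scaling, namely Itga7, at 9.38 and 11.7 RPKM in WT and 29.6 and 42.3 RPKM in cKO. The markers that differed did so between the same groups as the proteasome genes, and their part in the results was not tested. In such bulk samples, fewer cells of a type and less RNA per cell cannot be told apart.

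Proteasome subunit transcripts were more abundant in the libraries labelled cKO in nearly every case. Of the 39 members, 37 passed the filter of at least 1 RPKM in 2 libraries. Among these 37, 36 were higher in cKO and 0 were lower (limma on log2(RPKM + 1), Benjamini-Hochberg adjusted p below 0.05 over 11197 genes), where 35.9% of all genes tested were higher and 6.48% were lower. The adjusted p of the 36 ran from 0.000785 to 0.0309. The exception was Psmd9. In the same 36 members, both cKO libraries lay above both WT libraries, against 56.8% of all genes tested, and 15.5% had both cKO libraries below. The fold between groups ranged from 1.069 to 2.365 with a median of 1.764, and 31 of the 37 members reached a fold of 1.5, as did 25.1% of all genes. The median log2 fold change of the members was 0.82, which is 0.55 above that of all genes tested.

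After median-ratio scaling, 20 of the 37 members were higher and 0 were lower, where 14.8% of all genes tested were higher and 14.2% were lower. Quantile normalization left 24 members higher, where 15.9% of all genes were higher and 16.2% were lower. With median-ratio scaling, 33 members still had groups that did not overlap in the direction of cKO, against 34.9% of all genes (35.2% in the other direction), and the median of the members was 0.50 while that of all genes was -0.01. The members that kept their call were mostly in the 19S particle. They comprised 12 of 16 base and lid genes, 5 of 14 genes of the core rings, 2 of 3 assembly chaperones, and 1 of 4 activators. Whether these shares differ was not tested. Without WT replicate 2, 28 members were higher, where 21.3% of all genes were higher and 3.48% were lower, and without WT replicate 1, 33 were, where the shares were 21.6% and 4.45%. Among genes of at least 5 RPKM in 2 libraries, 35 of 36 members were higher, where 44.1% of all such genes were higher and 7.41% were lower.

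**Figure D1:**
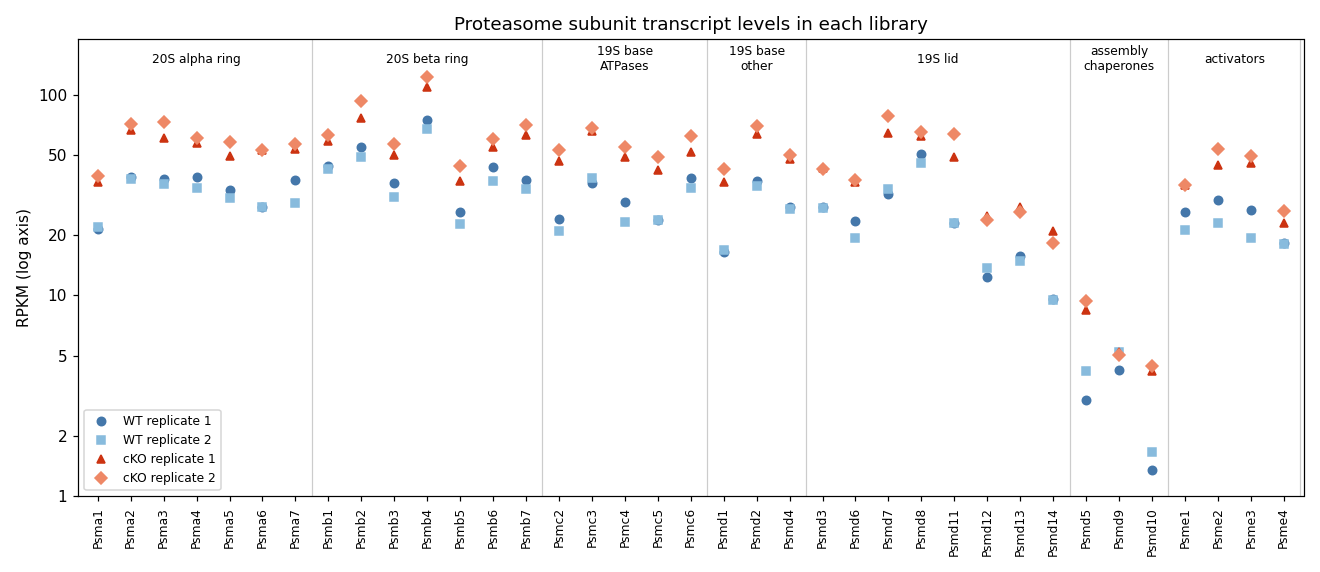
RPKM (log axis) of the 37 proteasome subunits past the filter, grouped by role, with 1 point for each library (blue, WT replicates 1 and 2; red, cKO replicates 1 and 2). Red points lie above blue points in 36 genes, all but Psmd9, and the assembly chaperones Psmd5, Psmd9, and Psmd10 lie below all other subunits.

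Most subunits had levels of the same order. In WT, 29 of 37 members had a mean of at least 20 RPKM. The order of the members was also alike between libraries, with a Spearman correlation over the 37 members of 0.96 between the WT libraries, 0.97 between the cKO libraries, and 0.88 to 0.95 between libraries of different groups (a description, since these genes share their libraries). The spread between libraries of a group was small for most of them, with a median SD of 6.81% of the mean in WT and 6.48% in cKO. The libraries of a group nevertheless deviated together, as 28 of 37 members were higher in WT replicate 1 than in replicate 2 and 31 were higher in cKO replicate 2 than in replicate 1.

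The starts of these genes were examined for short motifs, since members that move together can share factors. RefSeq promoter windows (GRCm38.p6; 250 bases before to 50 bases after the start) were found for 32 of the 39 members, as 35 windows. Letters were matched exactly on both strands, and a match is a description of the sequence only. The ETS motif CCGGAAG was in 34.3% of the member windows, in 8.86% of all 32851 windows, and in 17.1% of the windows of genes tested. It was found in 11 members, 8 of them in the 19S base and lid. Psmd11 and Psmc2, which had the largest folds among them, are shown beside the leading alpha gene Psma6 and the lid gene Psmd6, with the motif in capitals, read along the gene from 5′ to 3′ (CTTCCGG is the same motif on the opposite strand).
Psmd11: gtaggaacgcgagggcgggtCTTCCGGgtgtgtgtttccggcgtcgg
Psmc2: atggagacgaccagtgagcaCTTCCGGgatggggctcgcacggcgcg
Psma6: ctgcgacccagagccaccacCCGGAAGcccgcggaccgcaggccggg
Psmd6: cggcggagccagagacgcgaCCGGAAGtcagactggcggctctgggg
These stretches are chr11:80428584-80428630 (plus strand), chr5:21785171-21785217 (plus strand), chr12:55398673-55398719 (plus strand), and chr14:14120964-14121010 (minus strand). The Psma6 stretch comes from a window at a start inside the gene. No ETS match was found in the Psma6 window at the outer start.

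The motif of nuclear respiratory factor 1, which is GCGCA and GCGC around any base, was in 17.1% of member windows, 4.60% of all windows, and 9.85% of the windows of genes tested. It occurred in 6 members, namely Psma2, Psma3, Psma4, Psmc4, Psmc5, and Psmd14. The 3 below stand for an alpha, an ATPase, and a lid gene.
Psma2: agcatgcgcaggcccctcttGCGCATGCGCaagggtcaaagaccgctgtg
Psmc4: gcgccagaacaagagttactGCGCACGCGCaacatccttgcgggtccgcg
Psmd14: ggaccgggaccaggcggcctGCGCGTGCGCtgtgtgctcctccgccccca
They lie at chr13:14613095-14613144 (plus strand), chr7:28050232-28050281 (minus strand), and chr2:61711594-61711643 (plus strand). No member with this motif also held the ETS motif in its windows. The CCAAT box of NF-Y was in 34.3% of member windows and 37.4% of all windows.

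The core of the antioxidant response element, TGACNNNGC, to which Nrf1 and Nrf2 bind with small Maf proteins, was in 17.1% of member windows, 12.4% of all windows, and 14.1% of the windows of genes tested. The 6 members with it were Psmb5, Psmb6, Psmc6, Psmd9, Psmd12, and Psme4. Psmd9, which was not called, is shown beside Psmb5 and Psmc6, which were higher with the deposited values but not after median-ratio or quantile scaling.
Psmb5: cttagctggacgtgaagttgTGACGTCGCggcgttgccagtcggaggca
Psmc6: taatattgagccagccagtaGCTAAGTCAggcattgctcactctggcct
Psmd9: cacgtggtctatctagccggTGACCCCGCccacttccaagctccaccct
They lie at chr14:54618014-54618062 (minus strand), chr14:45329577-45329625 (plus strand), and chr5:123228139-123228187 (plus strand). Of the 6 members with this core, 5 were higher with the deposited values, where 35.9% of all genes tested were. After median-ratio scaling 1 of the 6, Psmd12, was higher, a share near the 14.8% of all genes.

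The alpha ring of the core was uniform in its change. All 7 alpha genes were higher in cKO, where 35.9% of all genes tested were. Their log2 fold changes lay between 0.68 and 0.91, with a median of 0.78. Psma6 (NM_011968; chromosome 12, 55384222 to 55418459, GRCm38 RefSeq annotation) stood at 27.74 and 27.73 RPKM in WT and at 53.07 and 53.13 RPKM in cKO. The spread within each group was far smaller than the gap between them, and the log2 fold change was 0.91 (SE 0.11, limma adjusted p = 0.00136). Psma2 stood at 39.1 and 38.1 RPKM in WT and at 66.5 and 71.6 RPKM in cKO, a log2 fold change of 0.82 (SE 0.11, limma adjusted p = 0.00207). Psma7 varied most between the WT libraries, with 37.4 and 28.9 RPKM, against 53.7 and 56.8 RPKM in cKO, and had the largest p of the ring (limma adjusted p = 0.00719). Of the other alpha genes, Psma3, whose tail helps to close the gate, stood at 38.2 and 36.04 RPKM in WT and at 61.2 and 73.2 RPKM in cKO. Psma1, with 21.5 and 22.0 RPKM in WT and 37.0 and 39.4 RPKM in cKO, had the lowest level of the ring. Psma4, at 39.0 and 34.2 RPKM against 57.3 and 61.2 RPKM, and Psma5, at 33.6 and 30.4 RPKM against 49.3 and 57.95 RPKM, completed the ring. With median-ratio scaling, where 14.8% of all genes were higher, Psma1, Psma2, Psma3, and Psma6 kept their calls, while Psma4, Psma5, and Psma7 did not.

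The beta ring had the fewest calls of the rings after scaling. All 7 beta genes were higher with the deposited values, with log2 fold changes between 0.48 and 0.89 and a median of 0.69. The share of all genes was 35.9%. After median-ratio scaling, however, 1 of the 7 was called, a share near the 14.8% of all genes. That gene was Psmb7, the subunit with trypsin-like activity (NM_011187; chromosome 2, 38588046 to 38643952), at 37.55 and 33.8 RPKM in WT and 63.1 and 70.5 RPKM in cKO (log2 fold change 0.89, SE 0.12, limma adjusted p = 0.00210). Its exons share 405 bases with Nek6 on the opposite strand, whose reads cannot be told apart without strand. Psmb5, the chymotrypsin-like subunit and the main target of proteasome inhibitors, stood at 25.9 and 22.6 RPKM in WT and 37.3 and 44.0 RPKM in cKO (limma adjusted p = 0.00596). Psmb6, the caspase-like subunit, stood at 43.6 and 37.05 RPKM in WT and 54.7 and 59.9 RPKM in cKO and had the largest p of the ring (log2 fold change 0.50, limma adjusted p = 0.0184). All 3 catalytic subunits therefore had higher transcript levels in cKO, by unequal amounts. Of the structural beta subunits, Psmb4 was the most abundant transcript of all members in every library, with 74.75 and 67.9 RPKM in WT and 109.3 and 122.5 RPKM in cKO (log2 fold change 0.69, limma adjusted p = 0.00472). Psmb2 followed in the ring with 54.7 and 48.8 RPKM in WT and 77.05 and 93.4 RPKM in cKO. Psmb3 stood at 36.4 and 31.1 RPKM in WT and at 49.9 and 57.0 RPKM in cKO. Psmb1 had the smallest difference of the core, from 44.4 and 42.8 RPKM to 58.95 and 63.1 RPKM (log2 fold change 0.48, limma adjusted p = 0.0138). The calls of Psmb1, Psmb3, and Psmb6 ended when WT replicate 2 was left out, and 4 beta genes were then called.

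Of the tissue-restricted core subunits, neither passed the filter. Psma8, which takes the place of Psma7 in testis, was at 0.0559 and 0.0292 RPKM in WT and 0.198 and 0.0342 RPKM in cKO, and Psmb11 of the thymus was between 0.0615 and 0.106 RPKM. Both were thus close to 0 in every library.

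The ATPase ring of the base showed some of the larger differences. Psmc1 was not analyzed here, and the other 5 ATPase genes were all higher in cKO, where 35.9% of all genes tested were. Their log2 fold changes lay between 0.64 and 1.12, with a median of 0.91. Psmc2 (NM_011188; chromosome 5, 21785275 to 21803787) stood at 23.9 and 20.9 RPKM in WT and at 46.85 and 53.0 RPKM in cKO, a log2 fold change of 1.12 (SE 0.13, limma adjusted p = 0.00113). Psmc5 was nearly equal in the WT libraries, at 23.8 and 23.65 RPKM, and stood at 42.2 and 49.1 RPKM in cKO (log2 fold change 0.91, limma adjusted p = 0.002). Psmc4 stood at 29.4 and 23.3 RPKM in WT and 49.1 and 55.1 RPKM in cKO. The most abundant ATPase transcripts moved less. Psmc3, with 36.1 and 38.6 RPKM in WT, reached 65.6 and 68.4 RPKM in cKO, a log2 fold change of 0.83. Psmc6 went from 38.3 and 34.4 RPKM to 52.1 and 62.3 RPKM and had the largest p of the ring (log2 fold change 0.64, limma adjusted p = 0.00869). It was also the ATPase gene that lost its call after median-ratio scaling, where 14.8% of all genes were higher. The ring as a whole had a geometric mean of 29.7 and 27.3 RPKM in WT and of 50.6 and 57.2 RPKM in cKO.

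The base also holds Psmd1 and Psmd2, large scaffold subunits, and Psmd4, a ubiquitin receptor, and all 3 were higher under each scaling. Of all genes tested, 35.9% were higher with the deposited values, 14.8% after median-ratio scaling, and 15.9% after quantile normalization. Psmd1 (NM_027357; chromosome 1, 86064619 to 86139295) had the smallest p of all members, at 16.54 and 16.78 RPKM in WT and 36.9 and 42.7 RPKM in cKO (log2 fold change 1.2, SE 0.13, limma adjusted p = 0.000785). Psmd2, which docks shuttle receptors, stood at 37.1 and 34.96 RPKM in WT and 63.8 and 69.9 RPKM in cKO (log2 fold change 0.87, limma adjusted p = 0.00190). Psmd4 stood at 27.7 and 27.1 RPKM in WT and 47.9 and 50.3 RPKM in cKO (log2 fold change 0.82, limma adjusted p = 0.00205). Psmd1 therefore had the lowest level of the 3 and the largest change. With median-ratio scaling, the log2 fold changes were 0.89, 0.55, and 0.50 in the same order.

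The lid held both the largest and the smallest called change of the 19S particle. All 8 lid genes of the rule were higher in cKO, with a median log2 fold change of 0.81, where 35.9% of all genes were. After median-ratio scaling 5 were higher, where 14.8% of all genes were. Psmd11 (NM_178616; chromosome 11, 80428615 to 80473248), whose human product promotes assembly of the 26S particle in stem cells, stood at 23.04 and 23.08 RPKM in WT and at 49.1 and 63.6 RPKM in cKO. This was the largest log2 fold change of all members, at 1.24 (SE 0.15, limma adjusted p = 0.00119), and it was 0.92 after median-ratio scaling. Psmd7, the partner of the deubiquitinase in the lid, stood at 31.96 and 33.9 RPKM in WT and 64.5 and 78.5 RPKM in cKO (log2 fold change 1.09, limma adjusted p = 0.00139). Psmd14, which encodes the lid deubiquitinase that removes ubiquitin chains from substrates, had the lowest level of the 19S genes in every library, at 9.55 and 9.46 RPKM in WT and 20.98 and 18.3 RPKM in cKO (log2 fold change 0.97, limma adjusted p = 0.00197). Psmd7 and Psmd14 form the active pair of the lid, and both kept their calls under each scaling. Psmd12 stood at 12.4 and 13.6 RPKM in WT and 24.99 and 23.6 RPKM in cKO, and Psmd13 at 15.7 and 14.9 RPKM in WT and 27.6 and 26.2 RPKM in cKO. These genes and Psmd14 were slightly higher in cKO replicate 1 than in replicate 2, unlike most members. Psmd6, at 23.6 and 19.3 RPKM in WT and 36.6 and 37.6 RPKM in cKO, and Psmd3, at 27.7 and 27.2 RPKM in WT and 43.4 and 42.5 RPKM in cKO, lost their calls after median-ratio scaling. Psmd8 was the most abundant lid transcript in WT, with 50.6 and 45.9 RPKM, and reached 62.1 and 65.15 RPKM in cKO. Its log2 fold change of 0.39 (SE 0.12, limma adjusted p = 0.0306) fell to 0.07 after median-ratio scaling, and its call was lost when either WT library was left out.

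**Figure D2:**
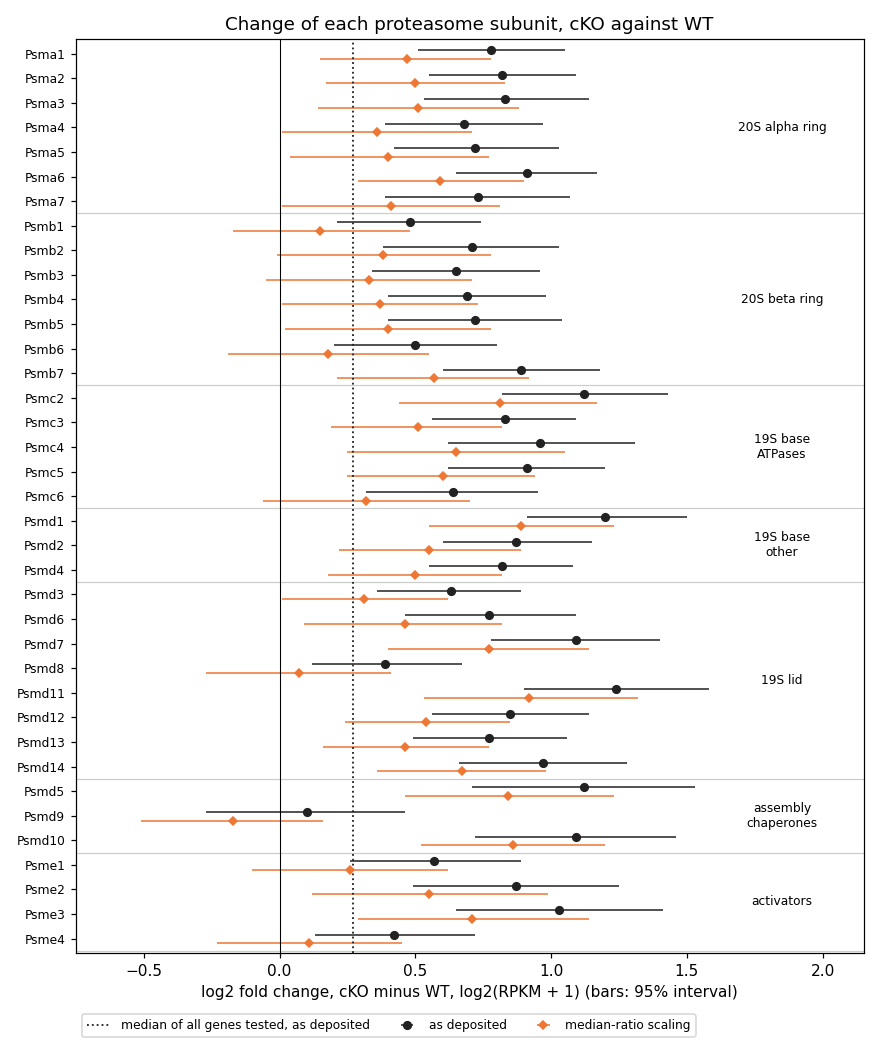
Log2 fold change of each member, cKO minus WT, on the log2(RPKM + 1) scale, with 95% intervals from limma (black, deposited values; orange, median-ratio scaling) and a dotted line at the median of all genes tested, 0.27. All genes lie right of 0 with the deposited values, from 0.10 for Psmd9 to 1.24 for Psmd11, and after scaling Psmd9 lies left of 0 at -0.17.

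The symbols Psmd5, Psmd9, and Psmd10 belong to chaperones that help to assemble the base and then leave it, and they are not part of the finished particle. Their transcripts were scarcer than those of all other members past the filter in every library. Psmd5 stood at 3.01 and 4.23 RPKM in WT and 8.48 and 9.42 RPKM in cKO (log2 fold change 1.12, SE 0.18, limma adjusted p = 0.00305). Psmd10, also known as gankyrin (NM_016883; chromosome X, 140948425 to 140956711), stood at 1.36 and 1.65 RPKM in WT and 4.21 and 4.45 RPKM in cKO. Its log2 fold change was 1.09 (SE 0.16, limma adjusted p = 0.00234), and the ratio of its mean RPKM, 2.88, was the largest of all members past the filter, since adding 1 RPKM shrinks the fold of a scarce gene. Psmd9 (NM_026000; chromosome 5, 123228190 to 123250126) stood at 4.27 and 5.22 RPKM in WT and 5.23 and 5.02 RPKM in cKO. Its groups overlapped, and its log2 fold change of 0.10 had a 95% interval of -0.27 to 0.46 (limma adjusted p = 0.652) and turned to -0.17 after median-ratio and quantile scaling. The base chaperones were thus split, with Psmd5 and Psmd10 higher under each scaling and Psmd9 not called under any. Shares of all genes higher were 35.9% with the deposited values, 14.8% after median-ratio scaling, and 15.9% after quantile normalization.

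All 4 activators were higher with the deposited values, where 35.9% of all genes were. After median-ratio scaling, where 14.8% of all genes were higher, 1 activator was. That gene was Psme3, which encodes the nuclear activator (NM_011192; chromosome 11, 101316213 to 101323537), at 26.5 and 19.4 RPKM in WT and 45.55 and 49.35 RPKM in cKO (log2 fold change 1.03, SE 0.16, limma adjusted p = 0.00301). Psme1 and Psme2 encode the paired subunits of the interferon-inducible cytoplasmic activator. Psme1 stood at 25.9 and 21.2 RPKM in WT and 35.5 and 35.4 RPKM in cKO (limma adjusted p = 0.0124). Psme2 stood at 30.0 and 23.1 RPKM in WT and 44.7 and 53.8 RPKM in cKO (limma adjusted p = 0.00541), and it has a near-identical copy, Psme2b, so its value is uncertain. Relative to the nuclear activator, Psme1 was lower in cKO, with a ratio of Psme1 to Psme3 of 0.977 and 1.095 in WT and of 0.779 and 0.717 in cKO. Psme4, a large activator that caps the core and acts in testis and in DNA repair, stood at 18.2 and 17.95 RPKM in WT and 23.0 and 26.2 RPKM in cKO. Its difference was the least certain of those called (log2 fold change 0.42, SE 0.13, limma adjusted p = 0.0309), and the call was lost without either WT library or without cKO replicate 2.

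Within each library, the level of the 19S genes lay nearer to that of the core genes in cKO than in WT. The geometric mean of the 14 ring genes was 37.8 and 34.3 RPKM in WT and 57.0 and 63.4 RPKM in cKO. That of the 16 base and lid genes was 24.6 and 23.5 RPKM in WT and 43.6 and 46.9 RPKM in cKO. Their ratio, 19S over 20S, was therefore 0.650 and 0.685 in WT and 0.764 and 0.739 in cKO. Multiplying a library by a factor, as median-ratio scaling does, leaves a ratio within it as it was, and both cKO values were above both WT values. With 2 libraries in each group, the smallest two-sided p of an exact permutation test is 0.333, and no other test was run on this ratio. The 19S genes were also spread over a narrower range in cKO, with the highest over the lowest at 5.30 and 4.86 in WT and 3.13 and 4.30 in cKO. For the ring genes this ratio was 3.47 and 3.09 in WT and 2.96 and 3.11 in cKO, which overlap.

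**Figure D3:**
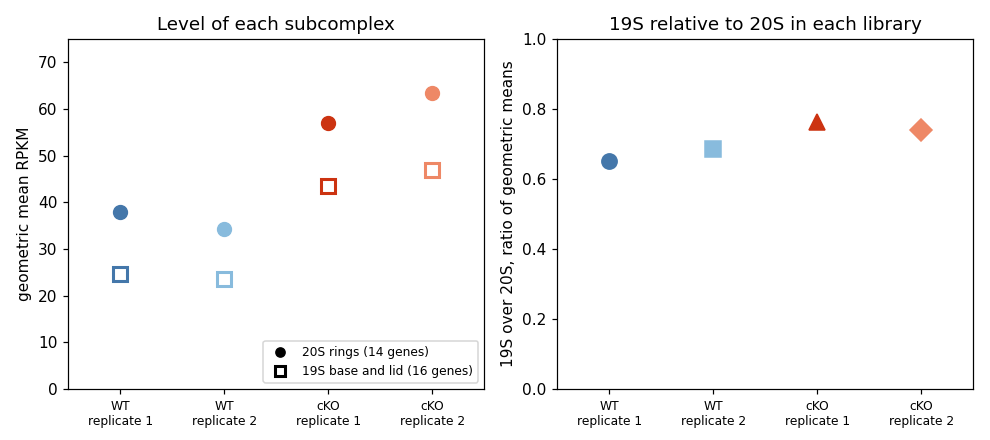
Left, geometric mean RPKM of the 14 genes of the 20S rings (circles) and the 16 genes of the 19S base and lid (open squares) in each of the 4 libraries. Right, the ratio of the 19S mean to the 20S mean in the same library, at 0.650 and 0.685 in WT and 0.764 and 0.739 in cKO.

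The catalytic subunits that interferon induces, which replace members of the beta ring in the immunoproteasome, were scarce in these cells. Psmb8 stood at 4.82 and 3.79 RPKM in WT and 7.10 and 7.38 RPKM in cKO (log2 fold change 0.64, limma adjusted p = 0.0158). Psmb9 rose from 0.812 and 1.14 RPKM to 2.12 and 2.23 RPKM (log2 fold change 0.69, limma adjusted p = 0.0131), and Psmb10 from 6.78 and 8.13 RPKM to 12.3 and 11.4 RPKM (log2 fold change 0.61, limma adjusted p = 0.0140). After median-ratio scaling, Psmb9 alone kept its call among these 3, and after quantile normalization none of them did (limma adjusted p of Psmb9 = 0.0524). Exons of Psmb9 share 212 bases with Tap1 on the opposite strand, which stood at 7.08 and 6.46 RPKM in WT and 9.80 and 13.6 RPKM in cKO. Relative to their constitutive counterparts, the inducible subunits differed by gene. Psmb8 was 18.6% and 16.8% of Psmb5 in WT and 19.04% and 16.8% in cKO, and Psmb10 was 18.0% and 24.1% of Psmb7 in WT and 19.5% and 16.2% in cKO. Psmb9 was 1.86% and 3.07% of Psmb6 in WT and 3.88% and 3.72% in cKO. Only this last ratio had groups that did not overlap, and constitutive subunits made up most of each catalytic pair in every library. Of 20 genes of the interferon response, 14 were higher and 0 were lower (median log2 fold change 0.76, with 35.9% of all genes higher). Among them was Gbp2, at 23.5 and 23.3 RPKM in WT and 55.8 and 72.5 RPKM in cKO. Another was Nlrc5, a transactivator of MHC class I genes, at 0.157 and 0.142 RPKM in WT and 1.70 and 1.82 RPKM in cKO. Nlrc5 was scarce and passed the filter only through the cKO libraries. The list holds genes of antigen processing and antiviral genes, and 10 of them were higher after median-ratio scaling, where 14.8% of all genes were.

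Of 5 tested factors that build the core, 2 were higher and 0 were lower, a share near the 35.9% of all genes, with a median log2 fold change of 0.11. After median-ratio scaling, 1 was higher, where the share of all genes was 14.8%. Pomp, which completes the beta ring, stood at 29.4 and 25.6 RPKM in WT and 43.9 and 45.5 RPKM in cKO (limma adjusted p = 0.00499) and lost its call under both scalings, while Psmg3 kept it, at 1.55 and 1.83 RPKM in WT and 4.80 and 4.06 RPKM in cKO (limma adjusted p = 0.00336). Psmg1, Psmg2, and Psmg4, chaperones of the alpha ring, had log2 fold changes of 0.02, -0.01, and 0.11, with groups that overlapped. Of 13 genes for proteins that bind the finished particle, 8 were higher and 0 were lower, with a median of 0.53, and 3 were higher after median-ratio scaling, with a median of 0.21. Adrm1, a ubiquitin receptor of the base whose symbol lies outside the rule, stood at 44.3 and 39.6 RPKM in WT and 74.98 and 92.7 RPKM in cKO (log2 fold change 0.98, limma adjusted p = 0.00237). Usp14, the deubiquitinase that trims chains at the particle, stood at 5.94 and 6.15 RPKM in WT and 11.8 and 13.3 RPKM in cKO (log2 fold change 0.94, limma adjusted p = 0.00258). Sem1, a small lid subunit that also lies outside the rule, stood at 82.05 and 70.35 RPKM in WT and 88.1 and 103.0 RPKM in cKO and was not called (limma adjusted p = 0.0948).

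The pathway that is known to control proteasome genes was mixed. Nfe2l1, which encodes Nrf1, stood at 36.1 and 40.5 RPKM in WT and 52.6 and 48.05 RPKM in cKO (log2 fold change 0.39, limma adjusted p = 0.0392), and its log2 fold change was 0.07 and not called after median-ratio scaling. Ddi2, the protease that activates Nrf1, was higher under each scaling, from 7.57 and 8.17 RPKM to 15.4 and 14.75 RPKM (limma adjusted p = 0.00280). Of the small Maf partners, Mafg was higher, with a log2 fold change of 1.00 (limma adjusted p = 0.00522), Maff was higher with the deposited values only, with a log2 fold change of 0.48 (limma adjusted p = 0.0158), and Mafk was lower, from 157.4 and 156.0 RPKM to 90.4 and 107.5 RPKM (limma adjusted p = 0.00639). Over this list, 6 of 13 genes were higher and 1 was lower, with a median of 0.38, and after median-ratio scaling 2 were higher and 1 was lower, with a median of 0.07. Among Nrf2 and its targets outside the proteasome, 5 of 9 were higher and 0 were lower, and 2 were higher after median-ratio scaling. These shares may be read against 35.9% and 14.8% of all genes. Srxn1, the sulfiredoxin gene, rose from 138.5 and 127.4 RPKM to 565.9 and 735.6 RPKM (log2 fold change 2.27, limma adjusted p = 0.000163), while Nfe2l2, which encodes Nrf2, stood at 95.5 and 93.2 RPKM in WT and 84.5 and 136.0 RPKM in cKO (log2 fold change 0.18, limma adjusted p = 0.514).

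Upstream of the proteasome lies the supply of ubiquitin. Of 11 genes for ubiquitin, E1 enzymes, and shuttle receptors, 3 were higher and 0 were lower, near the 35.9% of all genes, with a median log2 fold change of 0.12, and 0 were higher after median-ratio scaling (limma) and 2 after quantile normalization. Ubb, which encodes ubiquitin, stood at 2203 and 2059 RPKM in WT and 1747 and 2151 RPKM in cKO, with a log2 fold change of -0.14 and groups that overlapped. Uba1, the main E1 enzyme, stood at 48.65 and 48.45 RPKM in WT and 76.2 and 82.9 RPKM in cKO (log2 fold change 0.70, limma adjusted p = 0.00350), and lost its call after median-ratio scaling (limma adjusted p = 0.0824). The p97 unfoldase and its cofactors were higher in 6 of 11 cases, where 35.9% of all genes were. After median-ratio scaling 3 were higher, and 4 after quantile normalization, where the shares of all genes were 14.8% and 15.9%. The list was led by Ubxn4 (log2 fold change 1.06, limma adjusted p = 0.000922) and Nploc4 (log2 fold change 1.08, limma adjusted p = 0.00191).

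Other large complexes offer a scale for the size of these differences. Of all genes tested, 35.9% were higher with the deposited values and 14.8% after median-ratio scaling. The CCT chaperonin, a ring complex that folds actin and tubulin, had 7 of 7 tested genes higher with a median log2 fold change of 0.77, and 2 of 7 after median-ratio scaling. Its Cct8 gene stood at 51.2 and 47.5 RPKM in WT and 85.4 and 99.9 RPKM in cKO. The COP9 signalosome, which is built on the same plan as the lid, had 5 of 9 genes higher with a median of 0.46. After median-ratio scaling, with a median of 0.15, 1 of 9 was higher, a share below the 14.8% of all genes. That gene was Cops5, the counterpart of Psmd14, with a log2 fold change of 0.88 (limma adjusted p = 0.00204). Ubiquitin ligases of muscle atrophy were higher in 0 of 3 tested cases. With the deposited values, CCT (0.77) and the interferon response (0.76) stood nearest to the proteasome (0.82) in their medians. The order depended on the scaling. After median-ratio scaling the interferon response (0.51) was nearer to the proteasome (0.50) than CCT (0.45). After quantile normalization the Nrf2 list (0.46) was nearer to the proteasome (0.45) than CCT (0.43). The differences between lists were not tested.

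**Figure D4:**
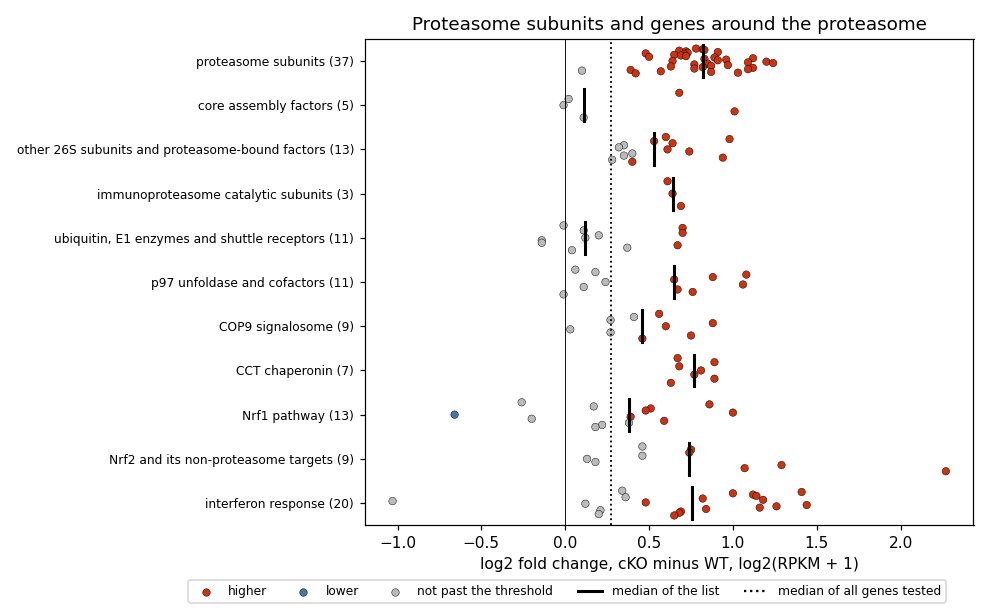
Log2 fold change (cKO minus WT, log2(RPKM + 1)) of every tested gene of the proteasome and of 10 related lists, with the number of genes tested in parentheses. Points are genes (red, higher; blue, lower; gray, not past the threshold), black bars are list medians, and the dotted line is the median of all genes tested, 0.27. The median is 0.82 for the proteasome, 0.77 for CCT, 0.12 for the ubiquitin supply, and 0.11 for core assembly factors.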

How the data were processed

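RNA-Seq of sorted hind limb cells was deposited by the authors as 1 table of RPKM values for 20027 RefSeq genes in 4 libraries, all of whose value columns were used. Libraries were TruSeq, sequenced as paired ends, per the study. TopHat2 (version 2.0.9), edgeR, and bedtools are named in the submitters' processing notes, as are both mm10 and mm9, without the step that each belongs to. How reads were counted, with which annotation, and whether by strand is not given in the sources used here. Without strand, reads of opposite-strand genes may count toward Psma4, Psma5, Psmb7, Psmc3, Psmd3, Psmd13, and Psme1, and Psmb5 and Psmd1 share exon bases with a same-strand gene. RPKM depends on the library total, so that abundant genes move all others.

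Depth was computed from the steps between low values in 405 olfactory receptor genes, taking 1 step as 1 read, and gave 46.5 and 89.1 M reads for the WT libraries and 90.4 and 41.4 M for the cKO libraries. RPKM are not counts, so no count model was used. The numbered animals in the titles were taken as replicates, and nothing else states that they are separate litters or sorts.

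Genes with at least 1 RPKM in 2 libraries (11197) were compared as log2(RPKM + 1), cKO minus WT, with limma (version 3.58.1, R 4.3.3; lmFit and eBayes with a trend), two-sided, with Benjamini-Hochberg adjustment over all of them and a threshold of 0.05. Folds are on this scale and understate changes of scarce genes. Counts of a list are descriptions with no test of the list. The members and the 29 lists (201 symbols, 197 of them in the table) were chosen with earlier results of these data known. By role group, full statistics were given for the 2 members with the smallest p and the 1 with the largest. They were also given for the inducible subunits and for Bap1, Smn1, Nfe2l1, and Nfe2l2. Of the other lists, up to 3 members with the smallest p were covered. Psma3, Psma1, Psma4, Psma5, and all other members were named after their values were seen. So were Psmg1, Psmg2, Sem1, Maff, Tap1, Ubb, Itga7, Ptprc, Pax7, Ly6a, and Pecam1. Roles come from general knowledge. Accessions of all 39 members matched the RefSeq gene table, and its positions are those of GRCm38, whether or not the RPKM were made on that build. Promoter windows of the same build were searched for exact matches.

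The script was tested on simulated data. Alternatives were a pseudocount of 0.1, a filter at 5 RPKM or none, median-ratio and quantile scaling, no trend, a block for the replicate number, each library left out in turn, and the limit of 1e-05 that the study names.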

Additional observations from a re-analysis of the deposited data

How the results depend on the processing

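The count of higher members was 36 with the deposited values, 36 with a pseudocount of 0.1, 35 without a filter, 35 of 36 with a filter at 5 RPKM (where 44.1% of all genes were higher), 35 without a trend, 20 with median-ratio scaling, 24 with quantile normalization, and 28 to 36 when a library was left out (28 without WT replicate 2, where 21.3% of all genes were higher). No member passed an adjusted p of 1e-05 with limma, so that count was 0, and it was 0 in each role group. Under median-ratio scaling, where 14.8% of all genes were higher, 4 alpha, 1 beta, and 5 lid genes and 1 activator were higher. Under quantile normalization, where 15.9% of all genes were higher, 3 beta and 5 lid genes and 2 activators were. Over the left-out libraries, 4 to 7 beta genes and 2 to 4 activators were higher, with the lowest counts without WT replicate 2. With a filter at 5 RPKM, 1 base chaperone was higher of 2 tested. The median log2 fold change of the members, 0.82, was 0.50 with median-ratio scaling, 0.45 with quantile normalization, and 0.75 to 0.84 with a library left out, lowest without cKO replicate 2.

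Among the members and the genes of the naming rule, the direction turned for 4, none of which was called with the deposited values. With median-ratio and quantile scaling, in that order, the log2 fold changes were -0.17 and -0.17 for Psmd9, -0.17 and -0.17 for Psmg4, -0.17 and -0.22 for Bap1, and -0.14 and -0.08 for Nfe2l2. Over the left-out libraries, Psmd9 ran from -0.02 (without WT replicate 1) to 0.22, Psmg4 from -0.17 (without WT replicate 2) to 0.39, and Nfe2l2 from -0.16 (without cKO replicate 2) to 0.52. Psmg1, outside that rule, turned from 0.02 to -0.29 and -0.34 under the same scalings, and list genes that are not named were not counted here. The cause was not tested.

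The replicate numbers only name the libraries. Deviations of same-numbered libraries correlated at -0.30 over 11197 genes. With the replicate number as a block, 34 members were higher, and with the numbers crossed, an alternative chosen after seeing the data, 36 were. With 2 libraries in a group, a library left out leaves an arm of 1, which is assumed to vary like the other. Differences of under about 0.4 on the log2 scale were at the edge of what these libraries resolve.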
